A study of Homo sapiens with 8 samples.

Results

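The genes described here are 34 of the 57500 genes in the count table: 20 enzymes of sterol synthesis, 6 regulators and carriers of the sterol response, and 8 genes of fatty acid synthesis. They were chosen as a named list of the sterol and lipogenic programme of the sterol regulatory element-binding proteins (SREBPs), and each of the 34 symbols matched a single Ensembl identifier. All 34 were expressed well enough to be tested, among 19171 genes tested. RNA was sequenced from 8 samples of HEK293T, a human embryonic kidney line with the large T antigen of SV40, and with no genetic change between groups. There were 4 Control samples given vehicle and 4 samples given 100 µM DZNep, all collected after 48 h and numbered as replicates 1 to 4 in each group. DZNep, short for 3-deazaneplanocin A, resembles adenosine and blocks AHCY, the enzyme that removes S-adenosylhomocysteine, the product of methyl transfer. The labels name DMEM as the medium and the methods of the study name RPMI. The samples are one cell line at one dose and time, the study calls the samples biological replicates, and the labels do not say whether each came from a culture of its own, so p-values measure the spread between these samples.

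Cells make cholesterol from acetyl-CoA by way of mevalonate, the isoprenoid diphosphates, squalene and lanosterol. When sterols in the endoplasmic reticulum are low, SCAP carries the SREBPs to the Golgi, where proteolysis frees the part that enters the nucleus and switches on these genes, and when sterols are high the INSIG proteins hold SCAP back. SREBP2, the product of SREBF2, acts mainly on sterol genes, whereas SREBP1, the product of SREBF1, acts mainly on fatty acid genes and is also raised by liver X receptors.

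The promoters of these genes are known for a sterol regulatory element beside sites for NF-Y and SP1. RefSeq windows of the 250 bases before the annotated start (GRCh38.p14) were found for 30 of the 34 genes and not for ACAT2, FDFT1, SQLE and FASN. The letters TCACNCCAC, a form of the sterol regulatory element with any base at N, were found on either strand in 1 of the 30 (SREBF2), against 1.09% of 27305 genes with a window. The NF-Y letters CCAAT occurred in 21 of the 30 (70.0%, against 37.0% of all genes), and the SP1 letters GGGCGG in 28 of the 30 (93.3%, against 46.2%). The E-box CACGTG occurred in 3 of the 30, namely SC5D, SCAP and INSIG1 (10.0%, against 7.73%). Matches of different motifs may overlap, several start sites of a gene were pooled, and a match is not a measured binding site. No filter on gene type or expression was applied to the 27305 genes, whereas the 30 are all protein-coding and expressed. The shares therefore do not compare like sets, and whether the motifs are particular to these genes was not tested.

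Windows are shown for 3 enzymes that fell with DZNep (IDI1, HSD17B7 and MSMO1) and for the pair of SREBP genes, of which SREBF1 rose and SREBF2 did not pass the test. Each ends at the last base before the annotated transcript and is written 5′ to 3′ on the strand of the gene, with CCAAT, its complement ATTGG and TCACNCCAC in capitals. They lie at chr10:1049120-1049369 (minus strand) for IDI1, chr1:162790452-162790701 (plus) for HSD17B7, chr4:165327419-165327666 (plus) for MSMO1, chr17:17837003-17837236 (minus) for SREBF1 and chr22:41832855-41833104 (plus) for SREBF2.
IDI1: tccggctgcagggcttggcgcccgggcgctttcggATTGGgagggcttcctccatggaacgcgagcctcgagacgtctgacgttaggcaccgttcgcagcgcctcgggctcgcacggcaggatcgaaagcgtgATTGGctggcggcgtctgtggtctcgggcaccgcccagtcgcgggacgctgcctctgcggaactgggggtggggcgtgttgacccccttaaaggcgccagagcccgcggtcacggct
HSD17B7: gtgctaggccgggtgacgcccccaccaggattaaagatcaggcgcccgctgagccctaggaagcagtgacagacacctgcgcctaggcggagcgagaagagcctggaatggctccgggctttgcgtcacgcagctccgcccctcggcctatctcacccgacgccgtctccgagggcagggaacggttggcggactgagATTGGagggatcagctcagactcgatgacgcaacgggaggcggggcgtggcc
MSMO1: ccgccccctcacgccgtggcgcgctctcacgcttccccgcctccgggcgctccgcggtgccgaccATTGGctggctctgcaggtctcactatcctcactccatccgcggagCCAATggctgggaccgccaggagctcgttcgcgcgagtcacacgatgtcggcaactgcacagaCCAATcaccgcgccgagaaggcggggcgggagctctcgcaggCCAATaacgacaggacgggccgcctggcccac
SREBF1: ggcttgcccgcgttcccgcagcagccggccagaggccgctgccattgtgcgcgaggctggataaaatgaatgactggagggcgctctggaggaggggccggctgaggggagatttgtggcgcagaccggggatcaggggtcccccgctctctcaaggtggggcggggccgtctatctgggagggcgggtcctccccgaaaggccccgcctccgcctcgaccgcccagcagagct
SREBF2: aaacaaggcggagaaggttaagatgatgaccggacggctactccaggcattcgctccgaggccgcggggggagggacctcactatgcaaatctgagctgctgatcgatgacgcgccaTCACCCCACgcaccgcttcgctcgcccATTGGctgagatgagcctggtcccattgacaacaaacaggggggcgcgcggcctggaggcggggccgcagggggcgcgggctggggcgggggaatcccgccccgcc

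The MSMO1 window holds 4 CCAAT matches, that of IDI1 holds 2, and those of HSD17B7 and SREBF2 hold 1 each. The SREBF1 window has no capitals, which says only that these letters are not in this window.

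Library totals ranged from 25043058 counts (Control replicate 1) to 44902779 counts, and values below are normalized counts, the deposited counts divided by 1 size factor per library. Of the HEK293T markers, all 6 were detected, with summed levels of 28505 to 52073 in Control and 35904 to 47515 in DZNep. The leukocyte list summed to 169 to 322 and 208 to 610, the hepatocyte list to 6.17 to 26.9 and 24.2 to 60.7, and the fibroblast list to 3371 to 6962 and 2833 to 7076, in Control and DZNep respectively. The source of the counts of these lists was not tested. CD3E had 0 counts in every Control library and 9 to 36 counts in DZNep. DZNep replicate 2 stood apart in COL1A2 (15.3, against 1072 to 1647 in the other DZNep libraries) and in LYZ (450, against 21.6 to 24.7). The mitochondrial share of counts split both groups by replicate number, with 3.02% and 3.16% in Control replicates 2 and 3 against 7.76% and 13.7% in replicates 1 and 4, and 4.25% and 4.44% against 7.04% and 10.1% in DZNep. In Control, replicates 2 and 3 were both above replicates 1 and 4 in 21 of the 34 genes (61.8%), against 35.2% of all genes tested. The part of these differences in the results was not tested, and in bulk samples fewer cells and less RNA per cell cannot be told apart.

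Across the 34 genes, DZNep lowered 12 and raised 2 at an adjusted p under 0.05 (edgeR's quasi-likelihood test with Benjamini-Hochberg adjustment over all genes tested), and 20 did not pass. That is 35.3% lower and 5.88% higher, where 21.8% of all genes tested were lower and 19.1% were higher. The median log2 fold change of the 34 genes was -0.26, beside -0.03 for all genes tested. With a further requirement of more than a 2-fold change, 4 genes were lower (IDI1, SQLE, FADS1 and FADS2; 11.8%, beside 13.5% of all genes) and 0 were higher (beside 10.6%). The groups did not overlap in 10 genes that were lower in DZNep (29.4%, beside 19.4% of all genes) and in 2 that were higher (5.88%, beside 19.5%). In a fit with a term for the replicate number (the block), 15 genes were lower (44.1%, beside 30.2%) and 4 were higher (11.8%, beside 28.8%). With replicates 1 and 4 alone, an alternative added after seeing the data, 8 genes were lower (23.5%, beside 22.7% of all genes in that fit), 3 were higher (8.82%, beside 21.1%) and the median was -0.01, so that the share of lower genes was near that of all genes. Replicates 2 and 3 alone gave 15 lower (44.1%, beside 23.2%), 3 higher (8.82%, beside 22.0%) and a median of -0.40. Without Control replicate 2 the median was -0.05, beside -0.02 for all genes in that fit. There 11 of the 34 genes were lower, where 4571 of 19820 genes tested were lower. Without Control replicate 1 or without DZNep replicate 2, 1 gene was higher. In those fits 3191 of 19780 and 3129 of 19681 genes tested were higher.

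**Figure D1:**
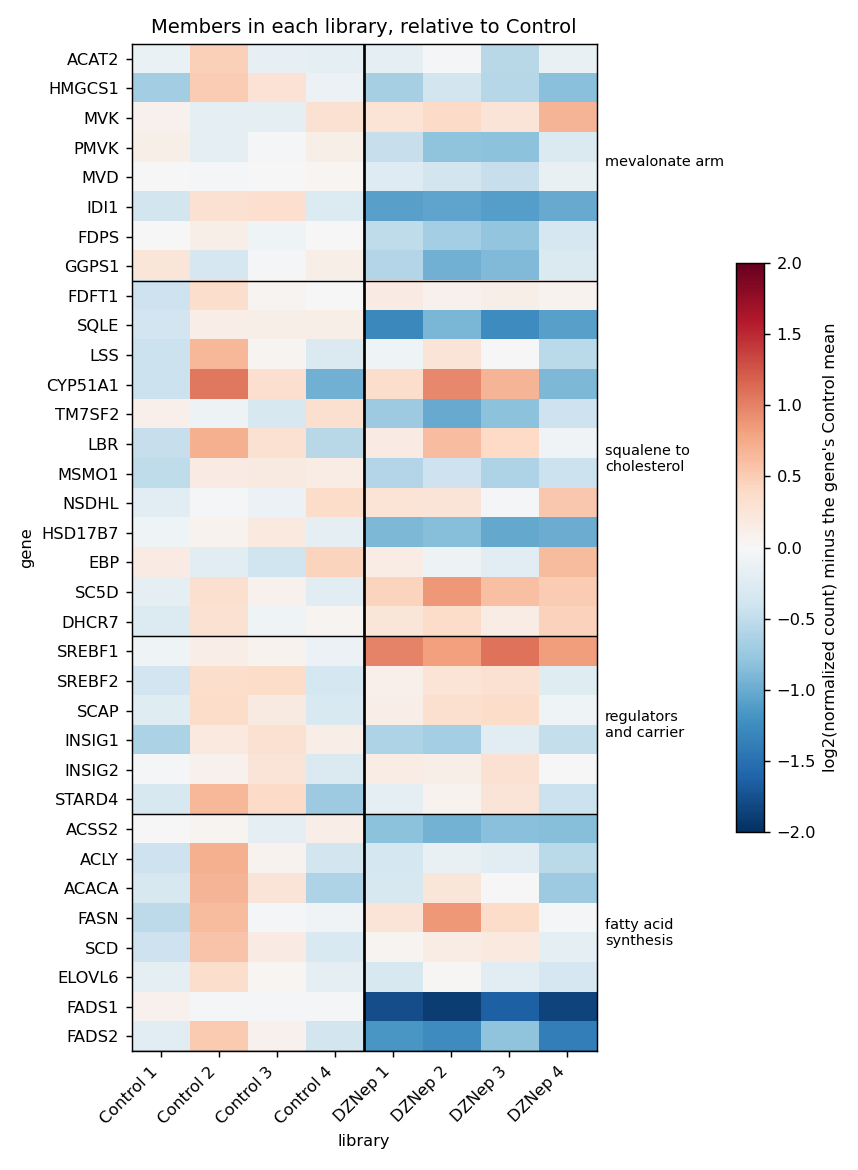
Each row is 1 of the 34 genes, in order of role, and each column is 1 of the 8 libraries; colour gives log2(normalized count) minus the mean over the gene's Control libraries, from -2.0 (blue) to 2.0 (red). SREBF1 is red in all 4 DZNep libraries and FADS1, SQLE and IDI1 are blue in all 4, while Control replicate 2 is the highest Control library in 19 of the 34 genes.

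The mevalonate arm makes the isoprenoid diphosphates. Of its 8 genes, 5 fell with DZNep (62.5%, beside 21.8% of all genes), namely HMGCS1, PMVK, IDI1, FDPS and GGPS1. With edgeR 0 rose, beside 19.1% of all genes (0 at an unadjusted p under 0.05 and 0 with DESeq2). With the block 1 rose (MVK, 12.5% of the 8, beside 28.8% of all genes). The median log2 fold change of the 8 genes was -0.60. IDI1, the isomerase that makes dimethylallyl diphosphate, fell the most. Its normalized counts were 2323, 3682, 3769 and 2466 in Control replicates 1 to 4 and 1404, 1436, 1388 and 1492 in DZNep replicates 1 to 4. Every DZNep library was below every Control library, and the DZNep libraries lay close together. The level in DZNep was 45.8% of Control (log2 fold change -1.13 ± 0.18 SE, adjusted p = 0.000892). HMGCS1, which makes HMG-CoA at the entry to the pathway, had 1804, 4151, 3560 and 2673 in Control and 1834, 2243, 1960 and 1629 in DZNep. Control replicate 1 was as low as the DZNep libraries, so the groups overlapped, and 3 of the 4 same-numbered pairs were lower in DZNep. HMGCS1 passed narrowly (log2 fold change -0.70 ± 0.24 SE, adjusted p = 0.04), and the call was lost without Control replicate 2 (-0.52, adjusted p = 0.0925), without Control replicate 3 (-0.62, adjusted p = 0.0972) and without any single DZNep library, replicates 1 to 4 in turn (adjusted p of 0.112, 0.0558, 0.0886 and 0.0878).

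PMVK, the phosphomevalonate kinase, had 2070, 1679, 1860 and 2068 normalized counts in Control and 1389, 1100, 1084 and 1557 in DZNep. FDPS, the farnesyl diphosphate synthase, had 6757, 7370, 6402 and 6814 in Control and 4806, 4267, 3953 and 5392 in DZNep. Both were lower in each DZNep library than in any Control library, to 65.5% (adjusted p = 0.0122) and 66.1% (adjusted p = 0.00769) of Control. GGPS1, which makes geranylgeranyl diphosphate for protein prenylation, fell to 61.6% of Control (log2 fold change -0.70 ± 0.19 SE, adjusted p = 0.0142), with 3466 to 5183 in Control and 2253 to 3563 in DZNep, where Control replicate 2 lay below DZNep replicate 4. With replicates 1 and 4 alone, HMGCS1, PMVK and FDPS no longer passed (adjusted p of 0.214, 0.0595 and 0.11).

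MVD, the mevalonate diphosphate decarboxylase, missed the threshold (log2 fold change -0.34 ± 0.13 SE, adjusted p = 0.0561) although its 4 DZNep libraries (1246 to 1556) were all below its 4 Control libraries (1684 to 1780). It passed with the replicate block (adjusted p = 0.0179), with DESeq2 (0.0212) and without DZNep replicate 4 (0.0479). MVK, the mevalonate kinase just upstream of PMVK, was the single gene of this arm with a positive estimate (0.36 ± 0.17 SE, adjusted p = 0.108). It had 723 to 1022 in Control and 990 to 1325 in DZNep, was higher in DZNep in 4 of 4 same-numbered pairs, and passed with the block (adjusted p = 0.0159) and without Control replicate 4 (0.0441). ACAT2, the cytosolic thiolase, had a log2 fold change of -0.28 ± 0.19 SE (adjusted p = 0.27). Its exons share 454 bases with TCP1 on the opposite strand, and MVK shares 225 bases with MMAB and GGPS1 138 bases with ARID4B in the same way; the strand of the libraries is not given in the sources used here, so reads there cannot be told apart.

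The 12 genes from squalene to cholesterol did not move together. Of these, 4 fell (33.3%, beside 21.8% of all genes), namely SQLE, TM7SF2, MSMO1 and HSD17B7. SC5D was the 1 gene that rose (8.33%, beside 19.1%), and 7 did not pass, with a median of 0.07 over the 12 genes. SQLE, the squalene epoxidase that adds the first oxygen and is a control point of the pathway, had 7438, 10612, 10476 and 10487 normalized counts in Control and 3947, 5126, 4047 and 4548 in DZNep. Control replicate 1 was the lowest Control library and still above every DZNep library. SQLE fell to 44.4% of Control (log2 fold change -1.17 ± 0.17 SE, adjusted p = 0.000418). HSD17B7, a sterol ketoreductase of the demethylation steps, had 601, 670, 733 and 562 in Control and 341, 354, 314 and 321 in DZNep, again without overlap. It fell to 50.9% of Control (log2 fold change -0.98 ± 0.14 SE, adjusted p = 0.000474). Genes named as HSD17B7 pseudogenes held counts equal to 10.1% of those of HSD17B7, and reads that match both copies were not counted.

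TM7SF2 and LBR encode sterol reductases for the same reaction, and LBR is also the lamin B receptor of the nuclear envelope. TM7SF2 had 1068, 929, 801 and 1247 normalized counts in Control and 602, 495, 567 and 751 in DZNep. It fell to 58.6% of Control without overlap between the groups (adjusted p = 0.00757). LBR had 5023, 11368, 8548 and 4723 in Control and 7791, 10598, 9113 and 6573 in DZNep, with replicates 2 and 3 high in both groups, and did not pass (log2 fold change 0.17 ± 0.29 SE, adjusted p = 0.661). MSMO1, the methylsterol monooxygenase, had 1198, 1911, 1925 and 1882 in Control and 1131, 1269, 1112 and 1262 in DZNep. Control replicate 1 fell among the DZNep libraries, while the other three Control libraries were above all of them. MSMO1 fell to 67.7% of Control (log2 fold change -0.56 ± 0.17 SE, adjusted p = 0.0246), a call lost without Control replicate 3 (adjusted p = 0.0649), DZNep replicate 1 (0.0865) or DZNep replicate 3 (0.075), and with replicates 1 and 4 alone (0.244).

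SC5D, the sterol desaturase just before DHCR7, moved the other way. It had 2417, 3435, 2942 and 2394 normalized counts in Control and 3766, 5068, 4199 and 3917 in DZNep, with every DZNep library above every Control library. The rise was 1.49-fold (log2 fold change 0.57 ± 0.17 SE, adjusted p = 0.0197), and the call was lost without Control replicate 1 (adjusted p = 0.0643) and without DZNep replicate 2 (0.0603). DHCR7, the last reductase, had 3618 to 5376 in Control and 4836 to 6042 in DZNep and did not pass (log2 fold change 0.27 ± 0.16 SE, adjusted p = 0.208), although DZNep was higher in 4 of 4 pairs. CYP51A1, the lanosterol demethylase, had the widest spread of the 34 genes, with 353, 989, 601 and 243 in Control and 606, 922, 764 and 255 in DZNep. The coefficient of variation was 60.6% in Control and 44.8% in DZNep, so its log2 fold change of 0.19 ± 0.46 SE (adjusted p = 0.762) leaves a wide range. FDFT1, which makes squalene (0.06 ± 0.17 SE), LSS, which makes lanosterol (-0.15 ± 0.25 SE), NSDHL (0.22 ± 0.18 SE) and EBP (0.09 ± 0.24 SE) did not pass either, with adjusted p-values of 0.806, 0.666, 0.341 and 0.8 respectively.

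**Figure D2:**
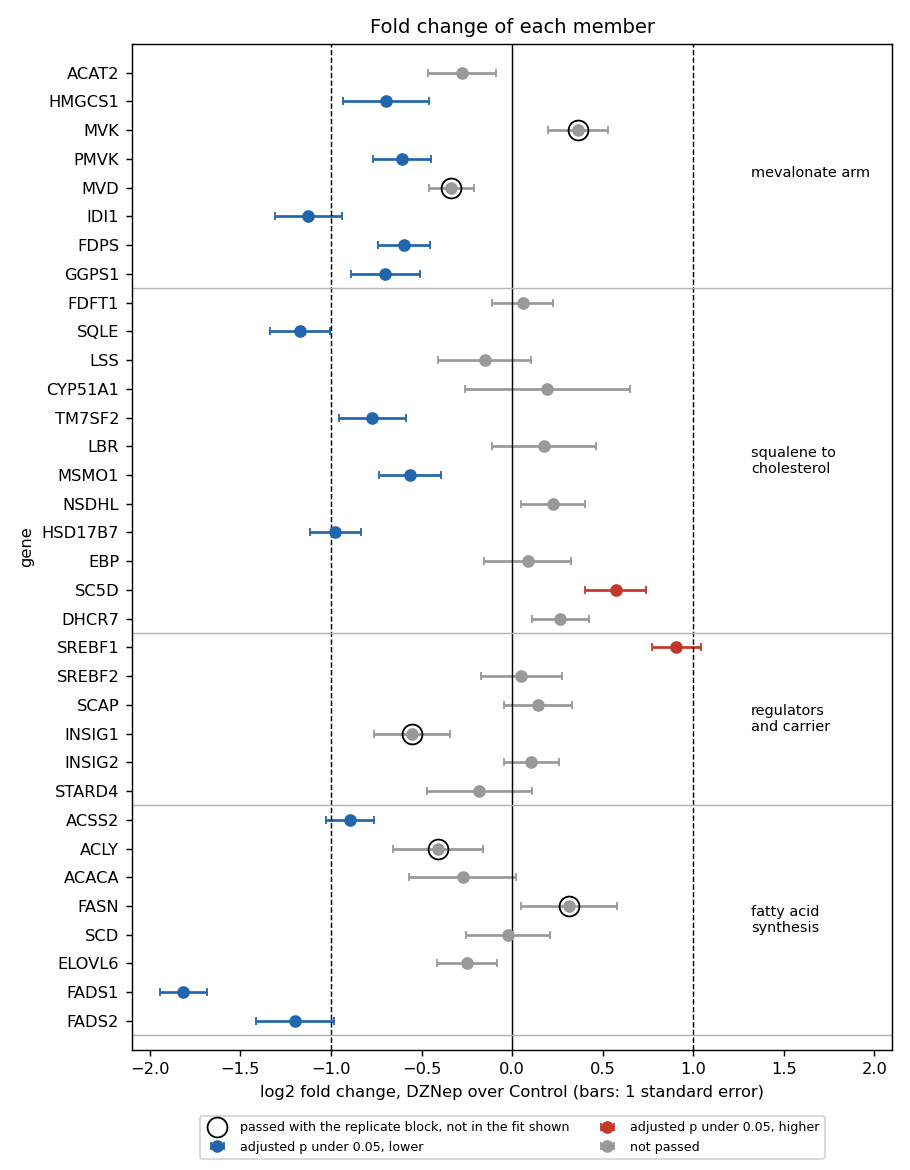
Log2 fold change, DZNep over Control, with 1 standard error for each of the 34 genes from edgeR's quasi-likelihood fit; blue and red points passed an adjusted p under 0.05 lower and higher, grey points did not, rings mark the 5 genes that passed with the replicate block and not in the fit shown, and dashed lines mark a 2-fold change. Blue points fill most of the mevalonate arm, from -1.13 for IDI1 to -0.60 for FDPS, and the widest bar is that of CYP51A1.

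Among the regulators, SREBF1 alone passed the test. SREBF1, on the minus strand of chromosome 17 at 17810399 to 17837002, had 2374, 2753, 2664 and 2333 normalized counts in Control and 5023, 4440, 5377 and 4499 in DZNep. Every DZNep library was above every Control library, and both groups were narrow. The rise was 1.87-fold (log2 fold change 0.91 ± 0.14 SE, adjusted p = 0.000545). Gene counts do not separate the transcripts of SREBF1, and its exons share 556 bases with RAI1 on the opposite strand. SREBF2, on chromosome 22, had 6714, 11182, 11298 and 6865 in Control and 9356, 10584, 10746 and 7377 in DZNep, with replicates 2 and 3 high in each group (log2 fold change 0.05 ± 0.22 SE, adjusted p = 0.873). SCAP, the escort protein, was at 0.14 ± 0.19 SE (adjusted p = 0.581).

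INSIG1, an SREBP target whose product holds SCAP in the endoplasmic reticulum, had 2487, 4396, 4757 and 4246 normalized counts in Control and 2525, 2415, 3321 and 2774 in DZNep. Control replicate 1 lay among the DZNep libraries, and the other three Control libraries lay above them. INSIG1 missed the threshold (log2 fold change -0.55 ± 0.21 SE, adjusted p = 0.0588), and passed with the replicate block (-0.52, adjusted p = 0.00429), with DESeq2 (0.0486) and without Control replicate 1 (-0.73, adjusted p = 0.00814). INSIG2, its paralog, had 648 to 942 in Control and 792 to 976 in DZNep (log2 fold change 0.11 ± 0.15 SE, adjusted p = 0.61). STARD4, a carrier that moves cholesterol between membranes, had 574 to 1512 in Control and 705 to 1135 in DZNep (-0.18 ± 0.29 SE, adjusted p = 0.652). Of the 6 regulators and carriers, 1 rose (16.7%, near the 19.1% of all genes) and 0 fell with edgeR (beside 21.8%). At an unadjusted p under 0.05, with DESeq2 and with the block, 1 fell (INSIG1). Of all genes, 4460 of 19171 fell with DESeq2 and 30.2% with the block.

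Of the 8 fatty acid genes, 3 fell with edgeR (37.5%, beside 21.8% of all genes), namely ACSS2, FADS1 and FADS2. With edgeR 0 rose, beside 19.1% of all genes (0 at an unadjusted p under 0.05 and 0 with DESeq2). With the block 1 rose (FASN, 12.5% of the 8, beside 28.8% of all genes). ACLY, ACACA, FASN, SCD and ELOVL6 did not pass in the fit without the block. FADS1, a front-end desaturase of polyunsaturated fatty acids, had the lowest log2 fold change of the 34 genes. It had 5846, 5410, 5352 and 5374 normalized counts in Control and 1601, 1471, 1773 and 1514 in DZNep. The groups were far apart and each was tight. FADS1 fell to 28.4% of Control (log2 fold change -1.82 ± 0.13 SE, adjusted p = 1.16e-05), and lay between -1.87 and -1.77 when any 1 library was left out. FADS2, the desaturase that acts before it on the same fatty acids, had 1912, 3201, 2373 and 1728 in Control and 999, 940, 1281 and 861 in DZNep, without overlap. It fell to 43.5% of Control (log2 fold change -1.20 ± 0.22 SE, adjusted p = 0.00157). These genes overlap on chromosome 11, FADS1 on the minus strand at 61799627 to 61829318 and FADS2 on the plus strand at 61792980 to 61867354, with 490 exonic bases in common, so part of the reads of each cannot be assigned without strand.

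ACSS2 makes acetyl-CoA from acetate in the cytosol, and ACLY makes it from citrate. ACSS2 had 774, 806, 673 and 852 normalized counts in Control and 438, 402, 431 and 430 in DZNep, without overlap. It fell to 53.8% of Control (log2 fold change -0.90 ± 0.13 SE, adjusted p = 0.000539). ACLY had 14639, 31781, 20574 and 15161 in Control and 15304, 17637, 16641 and 13428 in DZNep, with Control replicate 2 far above the rest. Its log2 fold change was -0.41 ± 0.25 SE (adjusted p = 0.219), and it passed with the block (-0.34, adjusted p = 0.0474). FASN, the fatty acid synthase, had 10299, 22927, 14575 and 14065 in Control and 17788, 26925, 19124 and 14493 in DZNep. DZNep was higher in 4 of 4 same-numbered pairs although the groups overlapped (0.31 ± 0.27 SE, adjusted p = 0.379), and FASN passed as higher with the block (0.34, adjusted p = 0.0403). SCD, the stearoyl-CoA desaturase, had 24366 to 48196 in Control and 28614 to 37234 in DZNep (-0.02 ± 0.23 SE, adjusted p = 0.949). ACACA, the acetyl-CoA carboxylase (-0.27 ± 0.30 SE, adjusted p = 0.492), and ELOVL6, an elongase (-0.25 ± 0.16 SE, adjusted p = 0.251), did not pass. Each was lower in DZNep in 4 of 4 pairs, although replicate 1 was nearly level for ACACA (3353 in Control and 3347 in DZNep). How many of all genes had a single sign in 4 of 4 pairs was not counted.

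**Figure D3:**
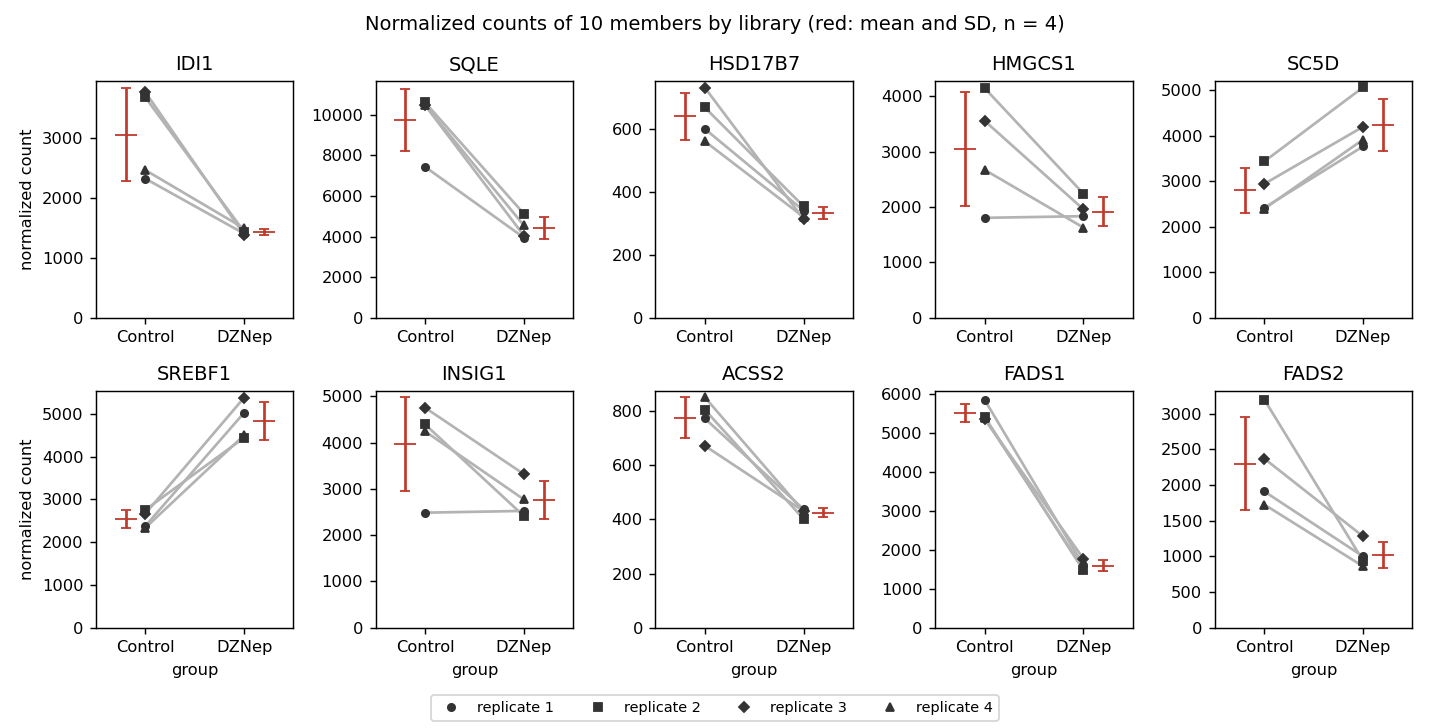
Normalized counts of 10 of the 34 genes in the 4 Control and 4 DZNep libraries, on axes that start at 0; grey lines join libraries with the same replicate number, and red marks give the mean and SD of each group (n = 4). The lines of FADS1, ACSS2, HSD17B7 and IDI1 fall steeply and end in a tight cluster, those of SREBF1 and SC5D rise, and replicate 1 is flat for HMGCS1 and INSIG1.

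Levels of different genes were compared as normalized counts per kilobase of exon (GENCODE release 44). In Control, SCD (6460 ± 2092 SD, n = 4) and ACLY (3944 ± 1529) were the highest, followed by SQLE (2266 ± 359) and EBP (2128 ± 557). MVK was the lowest (92.9 ± 15.7), next to CYP51A1 (131 ± 79.4) and HSD17B7 (134 ± 15.8). The length joins the exons of all annotated transcripts of a gene, and was 9018 bases for MVK, 4171 for CYP51A1 and 4784 for HSD17B7. Ranks therefore depend on the annotation. Without division by length, the Control mean of MVK (838) was above those of CYP51A1 (547) and HSD17B7 (641). Neighbours in this order, such as SQLE and EBP or CYP51A1 and HSD17B7, lay within their spread. In DZNep, SCD (6478 ± 731) and ACLY (3025 ± 350) remained the highest, SQLE moved from rank 3 to rank 11 (1026 ± 126), FADS1 from rank 19 to rank 29 (155 ± 13.1, from 537 ± 22.9), and HSD17B7 was the lowest (69.5 ± 3.91). SREBF1 moved from rank 23 (307 ± 25.4) to rank 17 (587 ± 54.2), and in Control SREBF2 was at 1119 ± 319, rank 10, and in DZNep at 1182 ± 193, rank 9.

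Of all genes tested, 21.8% were lower and 19.1% were higher. Sterol synthesis as a whole had 9 of 20 genes lower (45%) and 1 higher (5%), with a median log2 fold change of -0.31. Fatty acid synthesis had 3 of 8 lower (37.5%) and 0 higher, with a median of -0.34, which was -0.12 without Control replicate 2 and -0.50 without Control replicate 4. With the block, 10 and 4 genes were lower (50% of each group, beside 30.2% of all genes). In that fit 2 and 1 were higher (10% and 12.5%, beside 28.8%). With replicates 1 and 4 alone 5 sterol genes and 3 fatty acid genes were lower, where 22.7% of all genes in that fit were lower. Leaving out Control replicate 1 or DZNep replicate 2 removed the sterol gene that rose, and leaving out Control replicate 4 gave 2 that rose. In those fits 3191 of 19780, 3129 of 19681 and 3769 of 19611 genes tested rose. The mean of log2(normalized count) over the genes, set to 0 in Control, was described without a test. Over the 8 mevalonate genes it was -0.46 ± 0.13 (SD, n = 4) in DZNep, with a Control SD of 0.07, and the groups did not overlap. Over the 12 genes from squalene to cholesterol it was -0.12 ± 0.09 in DZNep with a Control SD of 0.23, and the groups overlapped. Over the 8 fatty acid genes it was -0.52 ± 0.17 with a Control SD of 0.32, again without overlap, since the lowest Control library stood at -0.25 and the highest DZNep library at -0.37. FADS1 (log2 fold change -1.82), FADS2 (-1.20) and ACSS2 (-0.90) weighed most in this mean. The 5 fatty acid genes that did not pass lay between -0.41 (ACLY) and 0.31 (FASN), so the mean does not describe all 8 genes. The sterol mean minus the fatty acid mean was 0.26 higher in DZNep (SD of 0.18 in Control and 0.19 in DZNep), and the libraries overlapped. On summed normalized counts, which SCD, ACLY and FASN dominate, the same difference was -0.14, so its sign depended on the weighting of the genes.

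**Figure D4:**
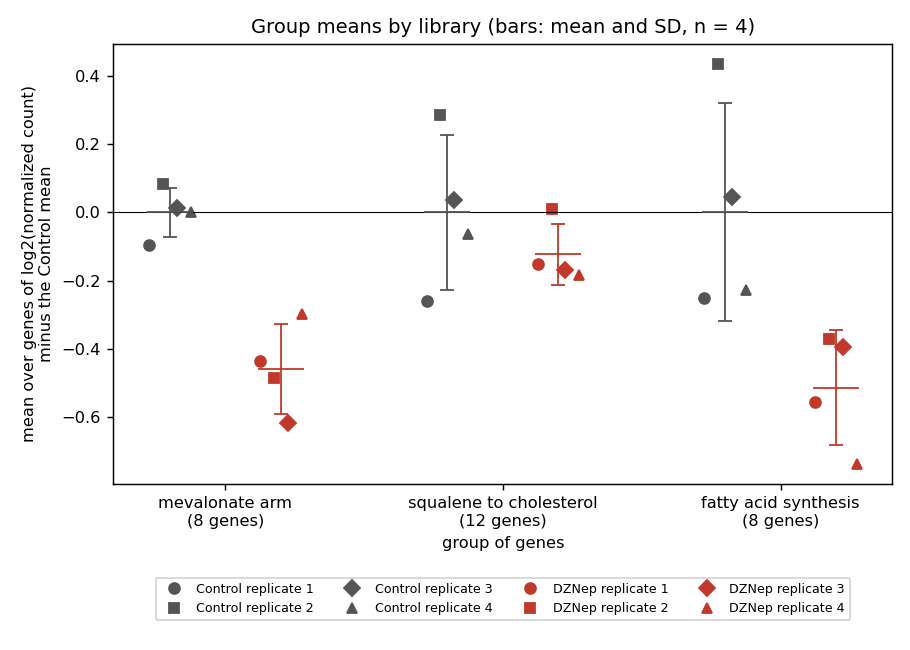
Mean over the genes of a group of log2(normalized count) minus its Control mean, for each of the 8 libraries (grey Control, red DZNep, a symbol for each replicate number; bars give the mean and SD, n = 4). DZNep lies below Control without overlap for the mevalonate arm (mean -0.46) and fatty acid synthesis (-0.52), and the groups overlap from squalene to cholesterol (-0.12). In fatty acid synthesis, FADS1, FADS2 and ACSS2 weigh most in the mean, and the 5 other genes did not pass the test.

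Ratios between related genes within a library cancel the scaling of the library. With 4 libraries against 4, the smallest p-value that the two-sided exact permutation test can give is 0.0286, and 7 ratios were tested. The log2 ratio of SREBF1 to SREBF2 was -1.50, -2.02, -2.08 and -1.56 in Control and -0.90, -1.25, -0.999 and -0.71 in DZNep. All 4 DZNep libraries were above all 4 Control libraries, with a difference of 0.83 (exact permutation p = 0.0286, Benjamini-Hochberg adjusted 0.1). The log2 ratio of SQLE to LSS, the next enzyme, was 2.35, 1.77, 2.35 and 2.70 in Control and 1.09, 1.12, 1.04 and 1.74 in DZNep. It was lower by 1.05 without overlap (difference -1.05, exact permutation p = 0.0286, adjusted 0.1). The differences of FADS1 to FADS2 (-0.64, exact permutation p = 0.0571), INSIG1 to INSIG2 (-0.64, 0.0857), SCD to FASN (-0.31, 0.114), LBR to TM7SF2 (1.02, 0.114) and ACLY to ACSS2 (0.55, 0.143) had adjusted values of 0.133 to 0.143. None of the 7 passed after adjustment in this test, which does not pair the libraries. Within same-numbered pairs, 6 of the 7 ratios, all but SCD to FASN, differed with a single sign in 4 of 4 pairs. How often ratios of other genes do so was not counted.

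Further genes of the pathway were taken as 80 genes in 6 lists, of which 77 were tested (not CH25H, THRSP and ELOVL3). Of these, 22 fell (28.6%, beside 21.8% of all genes) and 9 rose (11.7%, beside 19.1%), with a median of -0.12, which was -0.05 without Control replicate 2 and -0.18 without Control replicate 4. With the block 27 fell (35.1%, beside 30.2% of all genes) and 21 rose (27.3%, beside 28.8%). Without Control replicate 2, 14 rose, where 4012 of 19820 genes tested in that fit rose. With replicates 1 and 4 alone 16 rose, where 21.1% of all genes in that fit rose. Among 11 genes of SREBP processing and degradation, 3 rose and 3 fell (27.3% each, beside 19.1% and 21.8% of all genes). MBTPS2, the membrane protease that makes the final cut in SREBPs, fell (log2 fold change -1.31 ± 0.39 SE, adjusted p = 0.0207), with 1696, 3968, 2961 and 1133 normalized counts in Control and 941, 1275, 1226 and 549 in DZNep. Its groups overlapped at Control replicate 4, DZNep was lower in 4 of 4 pairs, and the call was lost without Control replicate 3 (adjusted p = 0.0509) and without DZNep replicate 1 (0.0623). SPRING1, a partner of SCAP in SREBP activation, rose 2.34-fold (adjusted p = 0.00841), from 1009 to 2595 in Control to 2701 to 4878 in DZNep. RNF139, an endoplasmic reticulum ubiquitin ligase, rose 1.9-fold (adjusted p = 0.00154) and RNF145, another such ligase, 1.45-fold (adjusted p = 0.0307). UBE2G2, the ubiquitin-conjugating enzyme of that degradation pathway, fell to 60.9% of Control (adjusted p = 0.00269) and ERLIN2, a scaffold of the endoplasmic reticulum membrane, to 59.9% (adjusted p = 0.0233). RNF145 lost its call without Control replicates 1 or 3 or DZNep replicates 2 or 3 (adjusted p of 0.0697 to 0.0937), and ERLIN2 without Control replicates 2 or 3 or DZNep replicates 1, 2 or 4 (adjusted p of 0.0518 to 0.0703), and neither passed with replicates 1 and 4 alone (0.184 and 0.107).

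Of 12 genes on the isoprenoid branches, 4 fell (33.3%, beside 21.8% of all genes) and 1 rose (8.33%, beside 19.1%). RABGGTB, the catalytic subunit of the enzyme that prenylates Rab proteins, fell to 41.2% of Control (log2 fold change -1.28 ± 0.14 SE, adjusted p = 0.000109). It had 4628, 3942, 4483 and 4664 normalized counts in Control and 1846, 1612, 1796 and 2188 in DZNep, without overlap. COQ2 (to 47.9%, adjusted p = 0.000649) and PDSS1 (to 60.6%, adjusted p = 0.00646), which build ubiquinone, also fell without overlap, and FNTB, the beta subunit of farnesyltransferase, rose 1.86-fold (adjusted p = 0.000869). Of 8 cofactor genes of sterol synthesis 1 fell (12.5%, beside 21.8% of all genes) and 0 rose with edgeR (beside 19.1%). The gene that fell was ACAT1, the mitochondrial thiolase, to 49.5% of Control (adjusted p = 0.00286). CYB5R3 rose at an unadjusted p under 0.05 and with DESeq2. With the block 3 of the 8 rose (37.5%, beside 28.8% of all genes) and 2 fell (25%, beside 30.2%). Of 13 tested genes of sterol transport and the liver X receptors, 3 rose (23.1%, near the 19.1% of all genes) and 1 fell (7.69%, beside 21.8%). With the block 6 of the 13 rose (46.2%, beside 28.8% of all genes) and 1 fell (7.69%, beside 30.2%). NR1H2, the liver X receptor beta, rose 1.66-fold (adjusted p = 0.00788), SMPDL3A, a phosphodiesterase, rose 1.58-fold (adjusted p = 0.00362), and MYLIP, a ubiquitin ligase for lipoprotein receptors, rose 1.47-fold (adjusted p = 0.0131). The groups of these genes did not overlap, and MYLIP lost its call with replicates 1 and 4 alone (adjusted p = 0.156). Other genes tied to the liver X receptors did not pass in the fit without the block, namely NR1H3 (log2 fold change -0.32 ± 0.16 SE), ABCG1 (0.50 ± 0.23 SE) and LPCAT3 (0.81 ± 0.41 SE). GRAMD1A, a sterol carrier at membrane contacts, fell to 45.4% (adjusted p = 0.00618).

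Among 23 other tested fatty acid genes 8 fell (34.8%, beside 21.8% of all genes) and 2 rose (8.70%, beside 19.1%), with a median of -0.44. Among 10 glycerolipid genes 5 fell (50%, beside 21.8%) and 0 rose with edgeR (beside 19.1%; 0 at an unadjusted p under 0.05 and 0 with DESeq2), with a median of -0.43. With the block 6 of these 10 fell (60%, beside 30.2% of all genes) and 1 rose (10%, beside 28.8%). PNPLA3, a lipid droplet protein and known SREBP1 target, had the lowest log2 fold change of these lists. It had 808, 522, 425 and 1101 normalized counts in Control and 78.9, 74.9, 89.0 and 111 in DZNep, so that no DZNep library reached the lowest Control library. It fell to 12.2% of Control (log2 fold change -3.04 ± 0.31 SE, adjusted p = 6.79e-05). DGAT2, which makes triacylglycerol, fell to 32.1% (adjusted p = 6.32e-05) and AGPAT3, an acyltransferase, to 44.5% (adjusted p = 0.00022). HACD1, a dehydratase of fatty acid elongation, fell to 23.7% (adjusted p = 7.06e-05), MLXIPL, the carbohydrate response factor ChREBP, to 26.6% (adjusted p = 0.000688) and ELOVL2, an elongase of polyunsaturated fatty acids that works with FADS1 and FADS2, to 38.7% (adjusted p = 0.000152). MLX, the partner of ChREBP, rose 1.62-fold (adjusted p = 0.00235). ELOVL4, an elongase of very long chains, rose 1.44-fold (adjusted p = 0.0203), a call lost without Control replicate 1 (adjusted p = 0.0639), DZNep replicate 1 (0.0539) or DZNep replicate 2 (0.0557), without a filter on low counts (0.0618) and with replicates 2 and 3 alone (0.0542).

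**Figure D5:**
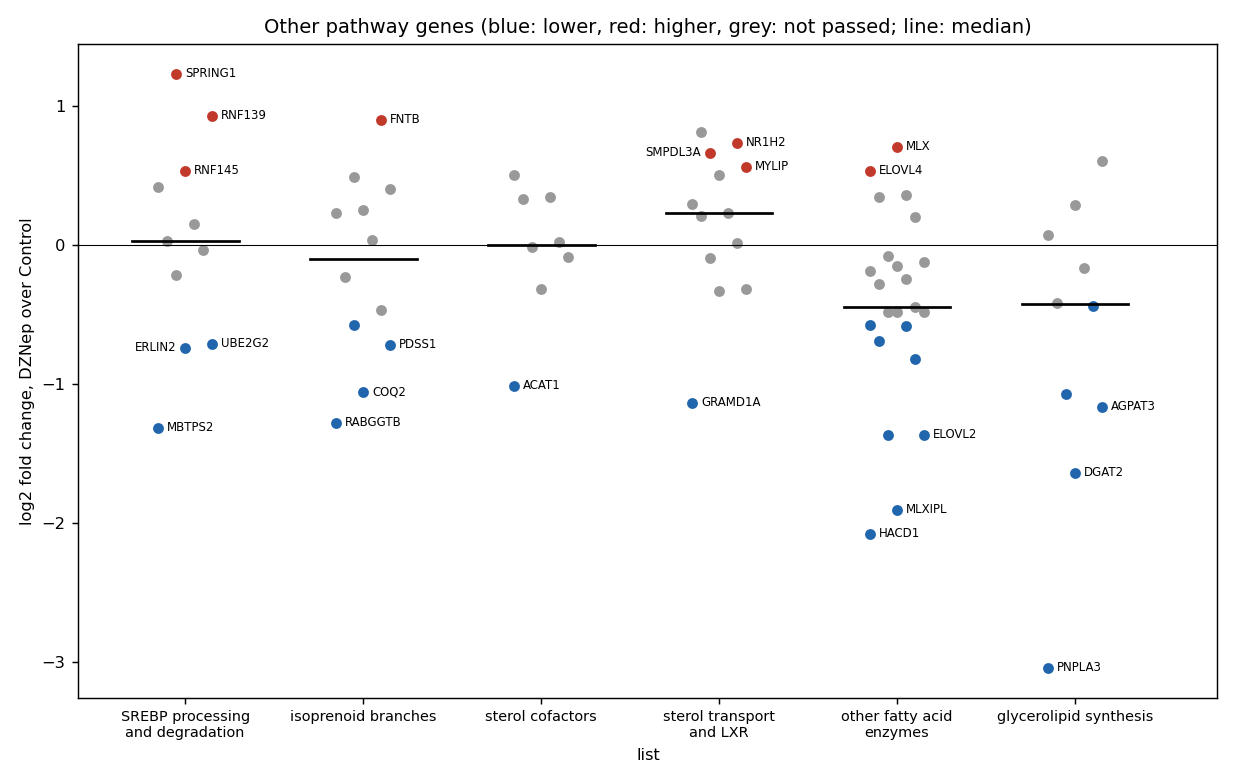
Log2 fold change, DZNep over Control, of the 77 tested genes of 6 further lists, with blue for genes that fell, red for genes that rose, grey for genes that did not pass (edgeR's quasi-likelihood test, adjusted p under 0.05) and a line at the median of each list. PNPLA3 is lowest at -3.04 and SPRING1 highest at 1.23, and in glycerolipid synthesis the coloured points are all blue.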

How the data were processed

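RNAseq was analysed in 8 HEK293T libraries, 4 Control and 4 DZNep, grouped by the treatment and replicate number in the labels. Per the labels and the study's methods, the authors ran Trimmomatic 0.36 on paired 150 bp reads, aligned these with STAR 2.5.2b against GRCh38, and took reads unique to the exons of a gene with featureCounts (Subread 1.5.2). The annotation release, library type and strand are not given in the sources used here. The counts the authors deposited are not normalized and cover 57500 genes. The normalized counts the authors deposited are a signal for 19118 genes, which were checked to equal counts over a size factor of the library, for genes with more than 80 summed counts. Symbols were matched for 56410 identifiers with GENCODE release 44, and sequences are from RefSeq.

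Software was limma 3.58.1, DESeq2 1.42.0 and edgeR 4.0.16 in R 4.3.3. Genes were tested by the quasi-likelihood test of edgeR, scaled by TMM and kept by filterByExpr, with Benjamini-Hochberg adjustment, a threshold of 0.05 and, where said, an absolute log2 fold change over 1. Fold changes and percentages of Control are from this fit, and SE is its standard error. On simulated counts for DZNep against Control it recovered 74 of 100 genes changed by a log2 value of 1 and 100 of 100 changed by 2, with 7 false calls among 19036 genes tested. These counts had the same dispersion for every gene, 200 changed genes and no split by replicate number. They therefore do not measure recovery or false calls in the libraries studied. Ratios were tested with a two-sided exact permutation test. No set test was run.

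Library totals were 25043058 to 44902779 counts, and floors (3 counts) cover counting error only. No 2 libraries of a group were alike within sampling noise, the smallest chi-square per degree of freedom being 26.9. Deviations from the group means correlated between same-numbered libraries (0.14, 0.47, 0.42 and 0.66 for replicates 1 to 4), and 1 of 24 possible pairings, the one by number, reached their mean of 0.42. The numbers were therefore taken to pair the libraries, from the values and not from the labels. The study's methods have no such term, so the block is an alternative. Signs in 4 of 4 pairs are given without the share of all genes, which was not counted.

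The genes and the gene lists were chosen with earlier results of these data known. All 34 genes are named, with up to 3 genes in each direction of the largest absolute log2 fold change among those that passed in each further list, and markers where a library stands apart. Alternatives were DESeq2, other size factors, the block, each library left out in turn, other low-count filters, limma on log2(normalized count + 1) or + 0.1, and, added after seeing the data, replicates 1 and 4 or 2 and 3 alone. The marker lists of 6 HEK293T, 5 fibroblast, 5 leukocyte and 5 hepatocyte genes gave 2 higher and 1 lower of 6, 1 higher of 5, 0 of 4 tested and none tested. The shares of all genes tested were 19.1% higher and 21.8% lower.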

Additional observations from a re-analysis of the deposited data

Results flagged for a closer look

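In 130 groups of 4 libraries (the genes and ratios named above), 8 held a library whose gap to the nearest other exceeded the critical value of Dixon's test. Chance gives about 1 in 20. ACAT2 was high in Control replicate 2, with 3549 normalized counts against 2266 to 2343 in the other Control libraries. SQLE was low in Control replicate 1, at 7438 against 10476 to 10612, and MSMO1 was low in the same library, at 1198 against 1882 to 1925. Control replicate 1 was also the highest Control library for FADS1, at 5846 against 5352 to 5410, and for FNTB, at 478 against 470 to 471. MYLIP was high in Control replicate 4, at 576 against 424 to 442. The log2 ratio of SCD to FASN was low in DZNep replicate 2, at 0.42 against 0.93 to 0.98, and that of SQLE to LSS was high in DZNep replicate 4, at 1.74 against 1.04 to 1.12. Control replicate 1 was the shallowest library, and the part of its depth in these values was not tested.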

How the results depend on the processing

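Of the 34 genes, IDI1, SQLE, TM7SF2, HSD17B7, SREBF1, ACSS2, FADS1, FADS2 and GGPS1 kept their direction and an adjusted p under 0.05 in every alternative run. HMGCS1 also lost its call with library sizes alone (adjusted p = 0.101) and with limma (0.0714 and 0.0731), and MSMO1 with library sizes alone (0.067) and without a filter on low counts (0.0632). With the replicate block, which pairs libraries of the same number, 5528 of all genes were higher, and higher genes numbered 4 of the 34, 2 of the sterol genes, 1 of the fatty acid genes and 21 of the further pathway genes, while 1 regulator was lower; the block gained MVK, MVD, INSIG1, ACLY and FASN and changed no other call among the 34. DESeq2 also gave 1 lower regulator (4460 of all genes were lower), and library sizes alone gave 2 higher sterol genes (3822 of all genes were higher). With replicates 1 and 4 alone, 5 sterol genes were lower and 2 higher, 16 further pathway genes were higher, and the medians were -0.013 for the 34 genes, -0.10 for sterol synthesis, -0.077 for fatty acid synthesis, 0.28 for the regulators and 0.00048 for the further genes. Replicates 2 and 3 alone gave 2 higher sterol genes and 1 lower regulator. Leaving out 1 library in turn gave 1 to 3 higher among the 34, a median of -0.335 to -0.0516, 0 to 2 higher sterol genes, 0 to 1 lower regulators and 7 to 14 higher further genes. Of all genes, 2952 to 4012 were higher and 3225 to 4571 lower in those fits. The sterol minus fatty acid difference was -0.14 with summed counts. The ratio of SREBF1 to SREBF2 differed by 0.73 to 0.92 and that of SQLE to LSS by -1.22 to -0.91 with 1 library left out, where 3 against 4 cannot give an exact permutation p under 0.0571. Signs turned only in genes that had not passed. With replicates 1 and 4 alone the log2 fold change was 0.00093 for ACAT2, 0.086 for LSS, 0.22 for STARD4 and 0.32 for SCD, and with 2 and 3 alone it was -0.14 for FDFT1, -0.050 for LBR and -0.11 for SREBF2. SCD was at 0.00083 with DESeq2, 0.00084 with the size factors of DESeq2 in edgeR, 0.044 with library sizes alone, 0.012 with at least 10 counts in every library, 0.024 with the block and 0.051 with limma at either pseudocount. Leaving out 1 library gave ranges of -0.072 to 0.18 for FDFT1, -0.30 to 0.11 for LSS, -0.058 to 0.64 for CYP51A1, -0.11 to 0.24 for EBP, -0.077 to 0.17 for SREBF2, -0.39 to 0.064 for STARD4 -0.16 to 0.19 for SCD, and, without a turn of sign, -0.34 to -0.095 for ACAT2, -0.55 to -0.12 for ACLY, -0.45 to -0.0083 for ACACA, -0.33 to -0.12 for ELOVL6 and 0.13 to 0.56 for FASN. LBR passed as higher with replicates 1 and 4 alone (0.58, adjusted p = 0.0312), and MVK with library sizes alone (0.0325). The cause of these shifts was not tested. The lowest count of any of the 34 genes in a library was 226, and intervals of the fit include the spread between replicates.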

Other observations

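The spread between libraries was wider in Control than in DZNep for most genes, with a larger coefficient of variation in 69.7% of all genes tested and in 27 of the 34 (79.4%). For the 34 genes it had a median of 20.8% in Control and 13.9% in DZNep. It was smallest for MVD in Control (2.35%) and for FDFT1 in DZNep (3.12%). Control replicate 2 was the highest Control library in 19 of the 34 genes (55.9%), beside 32.4% of all genes tested. In DZNep, replicates 2 and 3 were both above replicates 1 and 4 in 13 of the 34 genes (38.2%), beside 27.5% of all genes tested.

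Among the marker genes, KRT8, a keratin of simple epithelia, rose 5.44-fold with DZNep (edgeR's quasi-likelihood test, adjusted p = 0.000133), with 425, 216, 283 and 521 normalized counts in Control and 2139, 1484, 1940 and 2440 in DZNep. LUM, a matrix proteoglycan, rose 4.23-fold (adjusted p = 6.24e-05), with 89.4, 132, 87.8 and 91.3 in Control and 421, 354, 545 and 412 in DZNep. The groups did not overlap for either gene, and both were named after their values were seen. Among the other genes of the same lists, PAX2 fell (log2 fold change -0.54, adjusted p = 0.0228), KRT18 rose (0.83, adjusted p = 0.0453), and VIM (0.11), NEFM (-0.71, lower in 4 of 4 pairs), NEFL (0.14), COL1A1 (0.33), COL1A2 (-0.43), DCN (0.36) and PDGFRB (-0.06) did not pass.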
